A study of Mus musculus with 9 samples.

Results

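Amphiregulin (Areg) and the genes that make up its signalling route were followed through 9 RNA sequencing libraries of ILC2s (group 2 innate lymphoid cells), lymphocytes without antigen receptors that reside in tissues and make type 2 cytokines. The 7 genes considered were taken by symbol from the counts table: the ligands Areg, Hbegf, Ereg and Tgfa, their receptor Egfr, and the proteases Adam17 and Furin. Of these, 6 had a row among the 23466 genes of the table and all 6 passed the filter on low counts that left 15117 genes for testing; Ereg had no row and is not analysed here. Wild-type C57/Bl6 mice aged 10 weeks supplied every library, in 3 groups of 3: brain meninges taken 24 h after a contusion of the spinal cord with a force of 80 kdyn, brain meninges without injury, and lung without injury. Cells had been sorted as viable CD45-positive, lineage-negative cells positive for Thy1 and for ST2, the product of Il1rl1 that binds IL-33. No sham-operated group and no lung from injured mice are among the samples, so the operation and the contusion cannot be told apart. Per the labels, 5 mice were pooled for a group, and it is not said whether each library came from a pool of its own, so the p-values reflect only how the libraries of a group differ, and that spread may be technical.

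The ligands of the EGF receptor family are made as precursors anchored in the cell membrane, and a protease has to cut them free before they can act on neighbouring cells. ADAM17 is the main sheddase of amphiregulin, HB-EGF and TGF-alpha, and ADAM17 itself is matured by furin, a proprotein convertase of the Golgi. Amphiregulin from ILC2s is known in mouse lung as a factor in repair of the airway lining after infection, which is carried by cells that express the receptor EGFR. IL-33, sensed through ST2, is among the signals known to raise Areg in these cells.

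The sequence before the start of Areg is shown because Areg was the member that the results below turn on. It was read from RefSeq on GRCm38.p6 and covers the 250 bases before the annotated start, at chr5:91139349-91139598 on the plus strand, written 5′ to 3′. The capitals mark a full cAMP response element (CRE, TGACGTCA) and a TATA box (TATAAA).
Areg: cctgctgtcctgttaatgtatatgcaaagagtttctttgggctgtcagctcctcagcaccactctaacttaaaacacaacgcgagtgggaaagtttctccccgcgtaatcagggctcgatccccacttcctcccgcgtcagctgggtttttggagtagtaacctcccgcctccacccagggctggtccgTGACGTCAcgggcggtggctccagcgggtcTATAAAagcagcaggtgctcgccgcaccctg
The CRE lies 61 to 54 bases before the start and the TATA box 31 to 26 bases before it. Both strands were searched for these letters and for the AP-1 element TGANTCA, which neither contains nor is contained in the CRE. A CRE was present in 1.55% of the 32851 RefSeq promoter windows of this length, an AP-1 element in 6.75% and the TATA letters in 12.4%. Hbegf was left out of this search, so whether its window holds any of these letters was not tested. The windows of 5 members were searched, Areg, Tgfa, Egfr, Adam17 and Furin. Among these, 1 member (Areg) had the CRE, 0 had the AP-1 letters and 2 (Areg and 1 of the windows of Furin) had the TATA letters. A match of letters is a description and shows no binding.

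Library totals ranged from 13407277 to 18253462 counts, and 13465 to 18452 genes had at least 1 count. Mitochondrial genes took 25.31% to 35.27% of the counts. Injured meninges 2 stood apart: it had the fewest genes, a median Spearman correlation across genes of 0.797 with its group against 0.825 to 0.873 for the other libraries, and a score of -127.8 on the first principal component against -30.7 to 75.5. Of the genes that mark the labelled cells, Il1rl1 averaged 2379 ± 400 CPM in injured meninges, 2188 ± 337 in uninjured meninges and 2147 ± 280 in lung, and Gata3, a transcription factor that ILC2s need, 536, 549 and 556 CPM (CPM being counts on a common library size, scaled by edgeR's TMM method; mean ± SD, n = 3). The ILC2 list held 10 markers, Areg being 1 of them, and no marker was at 0 in any group. Thy1, a gene of the gate, averaged 68.0 CPM in injured meninges and 225 CPM in uninjured meninges (log2 fold change -1.73 ± 0.29, edgeR adjusted p = 0.022). That call was lost in 5 of 16 alternative fits. These were the fits without injured meninges 2 or 3 or uninjured meninges 1 or 3, and that of only the 6 libraries compared (edgeR adjusted p from 0.064 to 0.13).

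Areg was far lower in meningeal ILC2s than in lung ILC2s, with or without injury, and it was the one member that passed the test. Its level was 6.45, 5.09 and 14.5 CPM in the libraries of injured meninges, 11.6, 19.8 and 25.9 CPM in those of uninjured meninges, and 67.6, 319.8 and 222 CPM in those of lung. Every meningeal library lay below every lung library, while the injured and uninjured meninges overlapped, since injured meninges 3 was above uninjured meninges 1. The reads behind these levels numbered 64 to 232 in injured meninges, 213 to 386 in uninjured meninges and 1100 to 4343 in lung.

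**Figure D1:**
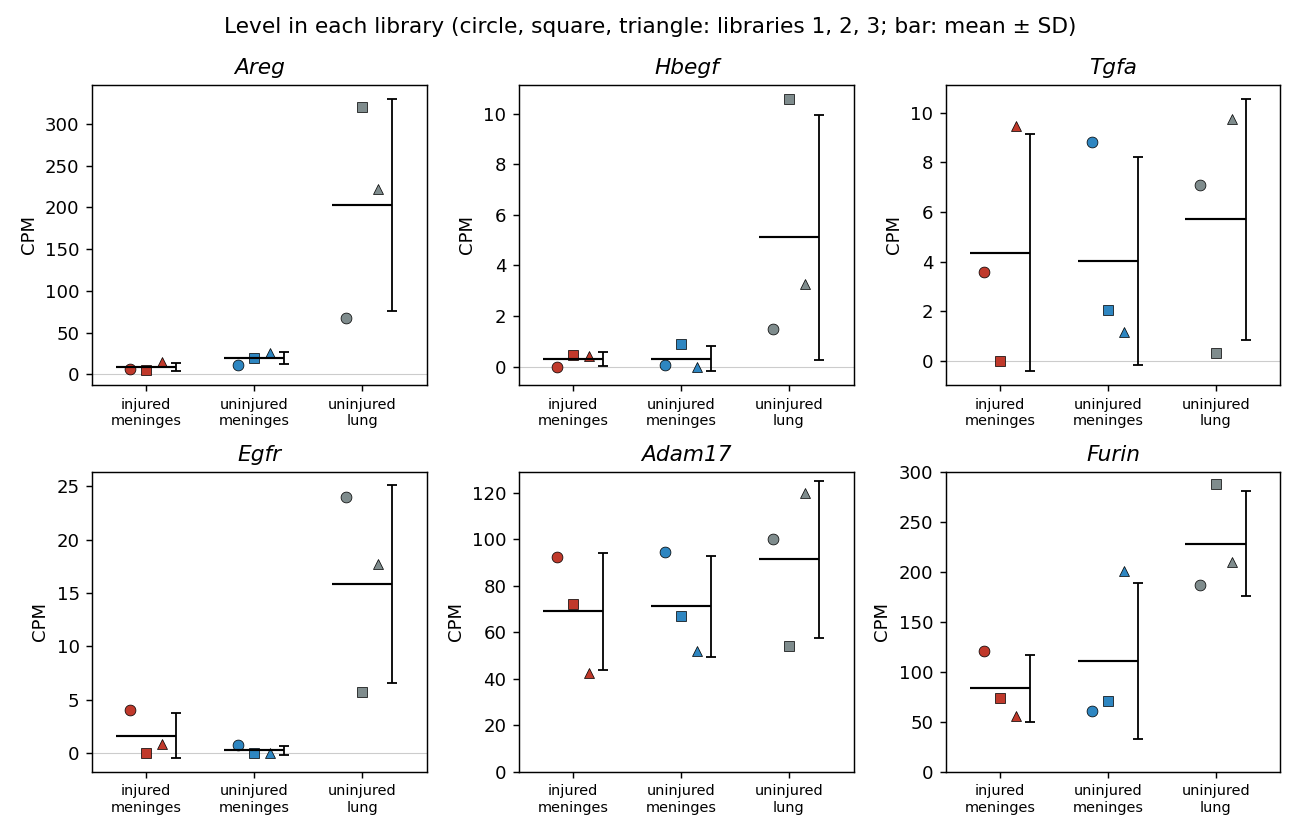
CPM of the 6 measured members in each library of injured meninges, uninjured meninges and uninjured lung, each panel with its own linear axis; circles, squares and triangles are libraries 1, 2 and 3, and the bars are the mean and SD over 3 libraries. Areg averaged 8.69 CPM in injured meninges, 19.1 CPM in uninjured meninges and 203 CPM in lung, while Tgfa and Adam17 overlap among all 3 groups.

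Differences are given as log2 fold changes with their standard errors (SE) from edgeR's quasi-likelihood test on all 9 libraries, with Benjamini-Hochberg adjustment over the 15117 genes, and a gene is called changed at an adjusted p under 0.05. Against lung, Areg had a mean of 8.69 ± 5.11 CPM in injured meninges and 203 ± 127 CPM in lung (± SD over 3 libraries), which gave a log2 fold change of -4.54 ± 0.60 with a 95% interval of -5.81 to -3.27, or 23.3-fold lower (edgeR adjusted p = 0.00098). In uninjured meninges it averaged 19.1 ± 7.19 CPM against the same lung libraries, a log2 fold change of -3.41 ± 0.57 with an interval of -4.61 to -2.21, or 10.6-fold lower (edgeR adjusted p = 0.0072). These comparisons share the lung libraries and are not independent of each other. The difference from lung was called under all 16 alternatives tried, in injured and in uninjured meninges. Without injured meninges 2 the first of these values was -4.27 (edgeR adjusted p = 0.0061), and without injured meninges 3 it was -5.13 (edgeR adjusted p = 0.0018). The second came closest to the threshold without lung 2, at -2.95 (edgeR adjusted p = 0.049).

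Between injured and uninjured meninges the Areg difference was not called. Its log2 fold change was -1.13 ± 0.53 with a 95% interval of -2.25 to -0.01, at an unadjusted p of 0.048 and an edgeR adjusted p of 0.55. It was -0.86 without injured meninges 2 and -1.72 without injured meninges 3, and stayed uncalled in each alternative (adjusted p from 0.36 to 0.93). The upper end of the interval is close to no difference. In bulk libraries such as these, fewer cells that carry a transcript and less of it per cell cannot be told apart.

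**Figure D2:**
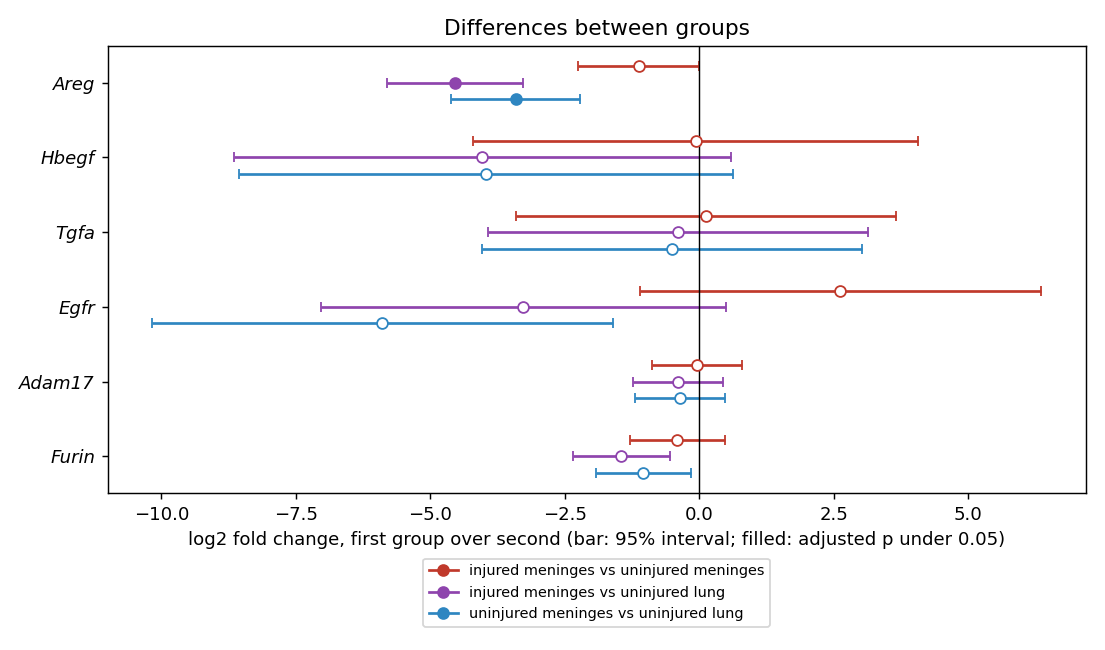
Log2 fold changes of the 6 members in the 3 comparisons, each as the first named group over the second, with 95% intervals; filled points have an edgeR adjusted p under 0.05. Only the Areg points against lung are filled, at -4.54 for injured meninges and -3.41 for uninjured meninges.

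Over the 6 members measured, edgeR called 0 between injured and uninjured meninges (1 at an unadjusted p under 0.05, where 8.94% of all genes had one, and 0 by DESeq2), where 0.192% of all genes tested were called, and for 0 of 6 the groups did not overlap, where this held for 12.1% of all genes. For injured meninges against lung 1 of 6 was called, lower, where 1.05% of all genes were called and 0.873% were called lower. For uninjured meninges against lung 1 of 6 was called, lower, where 0.635% were called and 0.595% were called lower. Areg was the gene in both. At an unadjusted p under 0.05 were 2 of 6 members for injured meninges against lung, where 13.3% of all genes were, and 3 of 6 for uninjured meninges against lung, where 7.98% were. DESeq2 called 2 members in each. Over all 15117 genes DESeq2 called 271 with injury, 789 for injured meninges against lung and 420 for uninjured meninges against lung. These totals are larger than those of edgeR, and the DESeq2 counts in the lists below stand beside them. In both lung comparisons all 6 fold changes were below 0, with a median of -2.36 in injured meninges and -2.23 in uninjured meninges, against -0.01 and 0 for all genes; with injury the median was -0.06, against 0. Areg, Hbegf, Egfr and Furin lay wholly below lung in injured meninges, 4 of 6 where 11.4% of all genes did so, and Areg, Hbegf and Egfr in uninjured meninges, 3 of 6 where 10.6% did. With 6 genes chosen with earlier results of these data known, these shares describe the members and are not tested.

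Hbegf encodes HB-EGF, a ligand that binds EGFR and ERBB4. It was scarce in the meninges, with 0, 0.477 and 0.439 CPM in the injured libraries, 0.0544, 0.903 and 0 CPM in the uninjured ones, and 1.48, 10.6 and 3.27 CPM in lung. The meningeal values rest on 0 to 14 reads a library. A count of 0 allows a level of up to 0.179 CPM in injured meninges 1 and 0.202 CPM in uninjured meninges 3. All meningeal libraries lay below all lung libraries, but the differences were not called: -4.04 ± 2.17 for injured meninges against lung and -3.97 ± 2.16 for uninjured meninges against lung (edgeR adjusted p = 0.45 and 0.73). With injury the log2 fold change was -0.07 ± 1.95 (edgeR adjusted p = 1), whose interval of -4.20 to 4.07 leaves large differences in either direction undetectable at this depth.

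Tgfa, which encodes TGF-alpha, varied from library to library within each group more than between groups. It was at 3.58, 0 and 9.46 CPM in injured meninges, 8.82, 2.07 and 1.14 CPM in uninjured meninges, and 7.07, 0.295 and 9.74 CPM in lung. The 3 groups overlapped. Log2 fold changes were 0.12 ± 1.66 for injured against uninjured meninges, -0.39 ± 1.66 for injured meninges against lung and -0.51 ± 1.66 for uninjured meninges against lung (edgeR adjusted p = 1, 0.96 and 0.99).

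Among all ligands of the ErbB receptors, Areg was the most abundant in each library once levels were set per length. The list held 11 ligands, of which 8 were in the table and 6 were tested; Ereg, Epgn and Nrg3 had no row, and Nrg1 and Nrg2 did not pass the filter. In CPM per kilobase of exon, Areg made up 79.5%, 97.4% and 87.1% of the sum over the 8 ligands in injured meninges, 76.9%, 81.4% and 85.6% in uninjured meninges, and 95%, 99.1% and 98.3% in lung. In injured meninges and in lung the share was highest in library 2, where Tgfa was lowest. Of the 6 tested, edgeR called 0 with injury (1 at an unadjusted p under 0.05, 0 by DESeq2), and 1 (Areg) was called lower against lung in injured meninges and in uninjured meninges. Of all genes, 8.94% had an unadjusted p under 0.05 with injury, and 0.873% and 0.595% were called lower in the comparisons with lung. Nrg4, a neuregulin that binds ERBB4, averaged 1.09 ± 1.29 CPM in injured meninges, 6.53 ± 6.03 CPM in uninjured meninges and 1.02 ± 1.46 CPM in lung, with a log2 fold change of -2.57 ± 1.91 with injury (edgeR adjusted p = 0.75). The median log2 fold change of the ligands was -0.60 with injury, -1.46 for injured meninges against lung and -1.04 for uninjured meninges against lung, where the median over all genes was 0, -0.01 and 0.

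Egfr, the receptor for the ligands among the members, had 0 to 67 reads in a meningeal library and 78 to 390 in a lung library. Its level was 4.002, 0 and 0.877 CPM in injured meninges, 0.762, 0 and 0 CPM in uninjured meninges, and 23.96, 5.74 and 17.7 CPM in lung. Both meningeal groups lay below the lung libraries without overlap, and 3 of the 6 meningeal libraries held no Egfr read. No difference was called: the log2 fold change was -3.27 ± 1.77 for injured meninges against lung (edgeR adjusted p = 0.46), -5.89 ± 2.01 for uninjured meninges against lung (edgeR adjusted p = 0.32) and 2.62 ± 1.75 with injury (edgeR adjusted p = 0.71). DESeq2 called the second of these, at an adjusted p of 0.012. The injury value was 7.63 without uninjured meninges 1, the one library of its group with Egfr reads, and 0.75 without injured meninges 1, with neither called.

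Lung epithelium expresses Egfr, and the sum of 11 epithelial markers was, like Egfr, higher in every lung library than in every meningeal library. Across the lung libraries Egfr and the sum ran in the same order, highest in lung 1 and lowest in lung 2. Within injured meninges the sum was highest in library 2, at 27.8 CPM, where Egfr was at 0. Of that sum, 19.7 CPM was Scgb1a1. Epcam, Sftpb, Sftpa1, Ager and Hopx were highest in injured meninges 1, as Egfr was, and Cdh1 was highest in injured meninges 3. The epithelial sum was 10.5 to 27.8 CPM in injured meninges, 4.23 to 12.95 CPM in uninjured meninges and 714.5 to 2207 CPM in lung. Sftpc, Scgb3a2, Krt8 and Krt18 were at 0 in injured meninges, Scgb3a2 and Krt18 in uninjured meninges, and none of the 11 was at 0 in lung. Fibroblast and stromal markers summed to 3.89 to 33.9, 8.65 to 82.1 and 108.5 to 297 CPM in injured meninges, uninjured meninges and lung, with Lum, Pdgfra, Dpt and Crabp2 at 0 in injured meninges, Dpt in uninjured meninges and Crabp2 in lung. Endothelial markers, with none at 0 in a group, summed to 76.3 to 189.9, 64.7 to 278 and 254.5 to 717 CPM. The part of these cells in the levels of Egfr and of the other members was not tested.

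Of the other receptors of the family, Erbb3 and Erbb2 were in the table and Erbb4 had no row. Erbb3 averaged 8.72 ± 8.97 CPM in injured meninges, 5.84 ± 4.40 CPM in uninjured meninges and 4.40 ± 2.86 CPM in lung, with edgeR adjusted p from 0.83 to 0.99 over the 3 comparisons. Erbb2, the receptor without a ligand of its own, was at 0 in all libraries of injured meninges, averaged 0.127 CPM in uninjured meninges and 0.592 CPM in lung, and did not pass the filter. Of the 2 receptors tested, edgeR called 0 in any comparison, where 1 (Egfr in uninjured meninges against lung) had an unadjusted p under 0.05 and was called by DESeq2. In that comparison 7.98% of all genes had such a p.

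Adam17, the sheddase, differed less between groups than between libraries of a group. It was at 92.6, 72.1 and 42.6 CPM in injured meninges, 94.8, 67.1 and 51.9 CPM in uninjured meninges, and 100.2, 54.3 and 119.8 CPM in lung. Library 3 was the lowest of each meningeal group and library 2 the lowest of lung, and the groups overlapped. The log2 fold change was -0.04 ± 0.39 with injury (95% interval -0.88 to 0.79), -0.40 ± 0.39 for injured meninges against lung (-1.24 to 0.43) and -0.36 ± 0.39 for uninjured meninges against lung (-1.19 to 0.47), with edgeR adjusted p of 0.99, 0.74 and 0.97. A difference within these intervals was not detectable with 3 libraries a group.

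Furin was at 121, 73.8 and 55.8 CPM in injured meninges, 61.1, 70.5 and 201 CPM in uninjured meninges, and 187, 287 and 210.2 CPM in lung. Injured meninges lay below lung without overlap, whereas uninjured meninges 3 was above lung 1. For injured meninges against lung the means were 83.5 ± 33.7 CPM and 228 ± 52.5 CPM, with a log2 fold change of -1.45 ± 0.42 that missed the threshold (95% interval -2.35 to -0.55, unadjusted p = 0.0035, edgeR adjusted p = 0.13). It was called by DESeq2 (adjusted p = 0.021), by edgeR without the low-count filter (adjusted p = 0.048) and by edgeR without uninjured meninges 3 (adjusted p = 0.044). Uninjured meninges averaged 111 ± 78.2 CPM, with a log2 fold change of -1.04 ± 0.42 against lung (edgeR adjusted p = 0.47). With injury the log2 fold change was -0.41 ± 0.41 (edgeR adjusted p = 0.84), and it turned to 0.34 without uninjured meninges 3.

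The level of Areg relative to the proteases was read per length. Exon lengths were taken from GENCODE M21 by gene identifier, 1.215 kb for Areg, 7.154 kb for Adam17 and 9.178 kb for Furin. In CPM per kilobase of exon, Areg averaged 7.16 ± 4.20 in injured meninges, 15.7 ± 5.92 in uninjured meninges and 167 ± 105 in lung, while Adam17 averaged 9.66, 9.96 and 12.8 and Furin 9.10, 12.1 and 24.9. Areg exceeded Adam17 in 1 of 3 libraries of injured meninges, 2 of 3 of uninjured meninges and 3 of 3 of lung, and the same counts held for Furin. The library of injured meninges in which Areg was above both proteases was library 3. Whether the ratio differs between groups was not tested apart from the tests of the single genes.

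**Figure D3:**
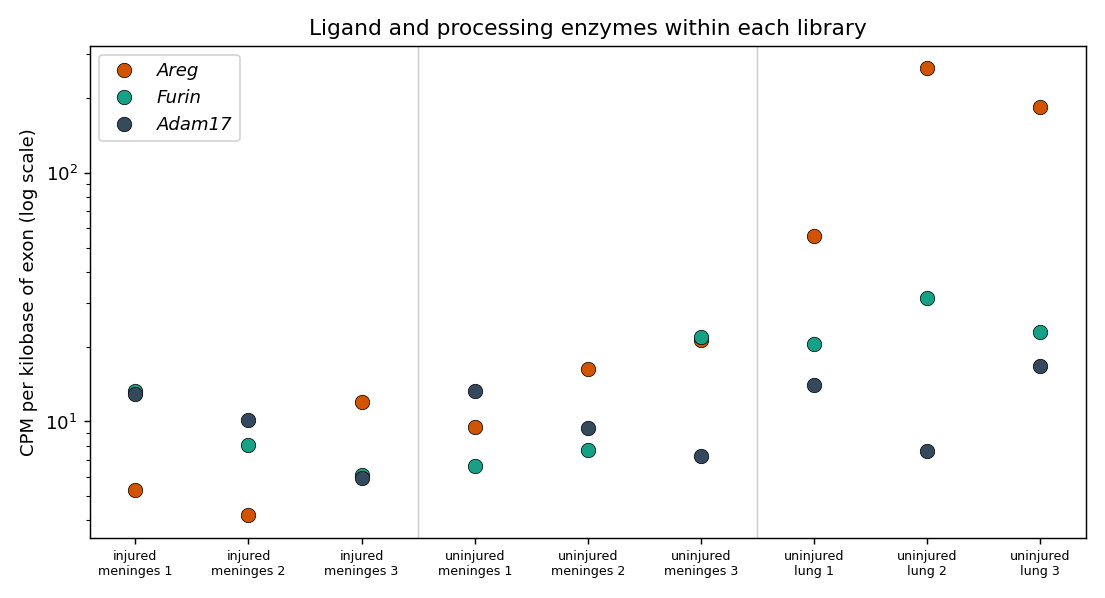
CPM per kilobase of exon (log axis) of Areg, Furin and Adam17 in each of the 9 libraries. Areg is the lowest of the 3 in injured meninges 1 and 2, at 5.31 and 4.19, and the highest in every lung library, at 55.6 to 263.

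The wider machinery of shedding held 10 listed genes, all in the table and 9 of them tested; Pcsk6 did not pass the filter. With injury edgeR called 0 (0 at an unadjusted p under 0.05, 0 by DESeq2). In injured meninges against lung it called 1 of 9 (Timp3) lower (4 at an unadjusted p under 0.05, 2 by DESeq2, Timp3 and Furin), and in uninjured meninges against lung 0 (2 at an unadjusted p under 0.05, 1 by DESeq2, Timp3). Of all genes, 8.94% had an unadjusted p under 0.05 with injury, 13.3% for injured meninges against lung and 7.98% for uninjured meninges against lung. For injured meninges against lung, edgeR called 0.873% of all genes lower. Timp3, a tissue inhibitor that blocks ADAM17, was at 16.8, 22.4 and 8.08 CPM in injured meninges, 39.8, 7.81 and 19.6 CPM in uninjured meninges, and 179.6, 55.3 and 184 CPM in lung. All meningeal libraries were below all lung libraries. The log2 fold change was -3.15 ± 0.62 for injured meninges against lung (edgeR adjusted p = 0.021) and -2.64 ± 0.61 for uninjured meninges against lung (edgeR adjusted p = 0.07). The call was lost without injured meninges 3, lung 1 or lung 3 (adjusted p from 0.084 to 0.10), and Timp3 was lowest of the lung libraries in lung 2, as were the epithelial, stromal and endothelial sums. Adam10, the sheddase of EGF and betacellulin, averaged 84.1 ± 17.3 CPM in injured meninges, 124 ± 20.1 CPM in uninjured meninges and 135 ± 57.8 CPM in lung, with a log2 fold change of -0.56 ± 0.32 with injury (edgeR adjusted p = 0.65).

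Within lung, the members fell into different orders across the 3 libraries. Areg, Hbegf and Furin were lowest in lung 1 and highest in lung 2, at 0.333 and 1.57 times the lung mean for Areg, 0.288 and 2.07 times for Hbegf, and 0.820 and 1.26 times for Furin. Tgfa, Egfr and Adam17 were lowest in lung 2, at 0.0517, 0.363 and 0.594 times the lung mean. The epithelial, stromal and endothelial marker sums were also lowest in lung 2, at 0.505, 0.589 and 0.486 times their means. The epithelial sum ran in the order opposite to that of Areg, being highest in lung 1. The mast cell and basophil sum ran in the order of Areg, at 642, 867 and 724 CPM in lung 1, 2 and 3. That order was set by Kit, at 618, 854 and 692 CPM. Cpa3 (12.4, 6.78 and 20.3 CPM) and Gata2 (12.0, 6.41 and 9.86 CPM), of the same list, were lowest in lung 2, where Areg was highest. The monocyte and macrophage sum, at 1416, 1441 and 2026 CPM, was lowest in lung 1, as Areg was, and highest in lung 3. Most of it was Ccr2, at 1047, 1407 and 1536 CPM. Lyz2, the next most abundant of that list in lung, was at 326, 6.78 and 425 CPM. Like Cd14 (6.15, 1.77 and 4.87 CPM) it was lowest in lung 2, as were Cd68, Csf1r, Adgre1, Itgam, C1qb and Marco. Only Mrc1 (10.8, 21.4 and 24.8 CPM) and Ccr2 were lowest in lung 1, and C1qa was at 0 or near it throughout lung. With 3 libraries no relation was tested, and the part of other cells in it was not tested.

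**Figure D4:**
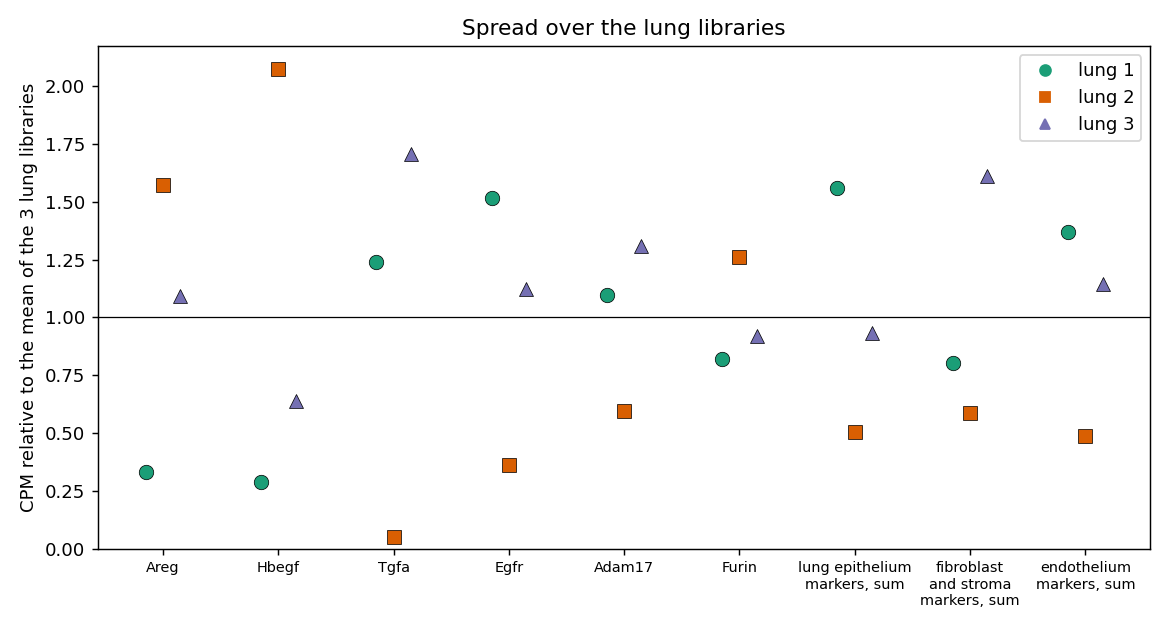
Level of each member and summed CPM of 3 marker lists in each lung library, divided by the mean of the 3 lung libraries (line at 1). Lung 2 is the highest for Areg (1.57), Hbegf (2.07) and Furin (1.26) and the lowest for Tgfa (0.0517), Egfr (0.363), Adam17 (0.594) and all 3 marker sums.

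Mast cells, basophils and macrophages can also express Areg or Hbegf, and their marker sums were read beside these genes. Mast cell and basophil markers summed to 383.6 to 558, 236 to 308 and 642 to 867 CPM in injured meninges, uninjured meninges and lung, which was mostly Kit. Of the 9 markers, 4 were at 0 in all libraries of injured meninges (Mcpt4, Tpsb2, Cma1 and Fcer1a), 1 in uninjured meninges (Mcpt4) and 4 in lung (Tpsb2, Cma1, Ms4a2 and Mcpt8). Cpa3, the mast cell carboxypeptidase, was at 0.0597, 0.318 and 0.752 CPM in injured meninges, 10.9, 2.07 and 1.14 CPM in uninjured meninges, and 12.4, 6.78 and 20.3 CPM in lung. Injured meninges lay wholly below both other groups, and edgeR called neither difference (log2 fold change -3.61 ± 1.39 with injury, edgeR adjusted p = 0.49, and -5.10 ± 1.48 against lung, edgeR adjusted p = 0.13); DESeq2 called Cpa3 for injured meninges against lung. Kit was called lower in uninjured meninges than in lung (log2 fold change -1.54 ± 0.23, edgeR adjusted p = 0.0031), a call kept in all 16 alternatives. It was at 209 to 854 CPM in each library, whereas Mcpt4, Tpsb2, Cma1, Fcer1a and Mcpt8 did not pass the filter on low counts. Monocyte and macrophage markers summed to 622 to 830.1, 1278 to 1528 and 1416 to 2026 CPM, of which Ccr2 made up most, at 607, 1368 and 1330 CPM on average. Which cells carried Kit or Ccr2 was not tested. Neutrophil markers reached 31.1, 97.9 and 8.20 CPM at most in a library, T cell markers 104.7, 51.2 and 49.7 CPM, neural markers 202, 194 and 149 CPM, and B cell markers 134, 946 and 314 CPM. Most of the neural sum was Mbp, at 125, 157 and 129 CPM on average. The T cell maximum in injured meninges, in library 2, was mostly Cd3g, at 91.9 CPM. Without injured meninges 2 the T cell, neural and B cell sums reached 39.4, 121.5 and 58.7 CPM in injured meninges. Ighm, the immunoglobulin heavy chain mu and the most abundant B cell marker, averaged 44.96 CPM in injured meninges, 579 CPM in uninjured meninges and 209.5 CPM in lung. It was called lower in injured meninges than in uninjured meninges (log2 fold change -3.69 ± 0.48, edgeR adjusted p = 0.0035) and than in lung (-2.22 ± 0.45, edgeR adjusted p = 0.028). The first call of Ighm was lost in 4 of 16 alternatives. These were without injured meninges 1 or 2 (edgeR adjusted p of 0.075 and 0.092), without the low-count filter (0.077) and with the replicate block (0.072). The second was lost in 7 of 16, among them without injured meninges 1, 2 or 3 or lung 2 or 3 (edgeR adjusted p from 0.065 to 0.15). Their part in the levels of the members was not tested.

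Downstream of the receptor, 22 genes of signalling and its brakes were listed and all were tested, and edgeR called 0 in each of the 3 comparisons. With injury 1 had an unadjusted p under 0.05 and DESeq2 called 0, for injured meninges against lung these counts were 5 and 3, and for uninjured meninges against lung 3 and 1. Of all genes, 8.94%, 13.3% and 7.98% had such a p in these comparisons. The median log2 fold change was -0.06 with injury, -0.49 for injured meninges against lung and -0.24 for uninjured meninges against lung. Those with the smallest p for injured meninges against lung were Gab1, a docking protein of activated receptors, Spry2, a Sprouty brake on ERK signalling, and Errfi1, an inhibitor of the EGFR kinase. Gab1 was at 0, 0 and 1.25 CPM in injured meninges, 7.95, 2.13 and 9.94 CPM in uninjured meninges, and 22.9, 11.3 and 19.3 CPM in lung. The 3 groups did not overlap, and no difference was called (log2 fold change -3.96 ± 1.49 with injury, edgeR adjusted p = 0.48, and -5.38 ± 1.59 for injured meninges against lung, edgeR adjusted p = 0.14). Spry2 averaged 22.8 ± 5.83 CPM in injured meninges, 29.96 ± 27.6 CPM in uninjured meninges and 82.3 ± 21.8 CPM in lung, and Errfi1 6.19 ± 5.04, 10.7 ± 9.19 and 52.4 ± 22.04 CPM, with edgeR adjusted p of 0.16 and 0.23 for injured meninges against lung.

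Of 13 receptors and adaptors through which ILC2s receive signals that act on Areg or restrain it, all were tested and edgeR called 0 in each comparison. With injury 4 had an unadjusted p under 0.05 and DESeq2 called 0, for injured meninges against lung these counts were 3 and 0, and for uninjured meninges against lung 4 and 1 (Il17rb). The shares of all genes with an unadjusted p under 0.05 were 8.94%, 13.3% and 7.98% in the same comparisons. The group means of Il1rl1 differed 1.02-fold to 1.11-fold (edgeR adjusted p from 0.80 to 0.99). All cells had been sorted as positive for its product ST2, which limits how far Il1rl1 could differ. Areg differed 10.6-fold and 23.3-fold between the meningeal groups and lung, and its relation to Il1rl1 was not tested. Il7r, the IL-7 and TSLP receptor chain, averaged 2086 ± 367 CPM in injured meninges and 1301 ± 224 CPM in uninjured meninges, without overlap (log2 fold change 0.68 ± 0.18, edgeR adjusted p = 0.22). Il17rb, a chain of the IL-25 receptor, averaged 397 ± 134.5 CPM in uninjured meninges and 152 ± 46.3 CPM in lung, also without overlap (log2 fold change 1.38 ± 0.30), at the threshold and not called (edgeR adjusted p = 0.05). It was called in 10 of the 16 alternatives. Myd88, the adaptor of the ST2 receptor, was at 8.12, 110 and 10.7 CPM in injured meninges, so that its mean there rested on injured meninges 2. Its log2 fold change with injury was 2.79 (edgeR adjusted p = 0.48), and 0.60 without that library (edgeR adjusted p = 0.94).

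Of 12 other secreted products of ILC2s, 11 were in the table and 8 were tested; Il10 had no row. With injury edgeR called 0 (2 at an unadjusted p under 0.05, 1 by DESeq2, Calca), in injured meninges against lung 1, Lif, which was lower (4 at an unadjusted p under 0.05, 2 by DESeq2, Csf2 and Lif), and in uninjured meninges against lung 0 (5 at an unadjusted p under 0.05, 2 by DESeq2, Csf2 and Calca). Over all genes, 8.94%, 13.3% and 7.98% had an unadjusted p under 0.05 in these comparisons, and edgeR called 0.873% lower for injured meninges against lung. Lif, a cytokine of the IL-6 family, was at 5.91, 1.83 and 17.7 CPM in injured meninges, 15.9, 30.7 and 51.1 CPM in uninjured meninges, and 55.2, 145 and 159 CPM in lung. Its order of groups was that of Areg, and like Areg it was lowest in injured meninges 2 and in lung 1 within those groups. Against lung the log2 fold change in injured meninges was -3.82 ± 0.73 (edgeR adjusted p = 0.017), a call lost without injured meninges 1, lung 2 or lung 3 (adjusted p from 0.051 to 0.072). Calca, which encodes CGRP, did not follow Areg: it averaged 473 ± 134 CPM in injured meninges, 5.33 ± 6.26 CPM in uninjured meninges and 168.5 ± 79.3 CPM in lung (log2 fold change 6.48 ± 1.05 with injury, edgeR adjusted p = 0.085, called in 5 of 16 alternatives).

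The genes whose levels were most like those of Areg were sought among the 7202 genes that averaged 10 CPM or more, by Pearson's r of log2(CPM + 1) over the 9 libraries. They were Dnaja1 (r = 0.972), a co-chaperone of HSP70, Zfp36 (0.967), which encodes tristetraprolin, a protein that promotes decay of mRNAs with AU-rich elements, Dusp5 (0.963), a nuclear phosphatase of ERK, Dot1l (0.958), a histone methyltransferase, and Gadd45b (0.956), a stress-induced gene. The libraries fall into meninges and lung, so these values describe mostly a shared difference between tissues, and the libraries share their tissue, preparation and depth. Zfp36 was at 46.9, 53.5 and 72.1 CPM in injured meninges, 61.7, 76.3 and 217 CPM in uninjured meninges, and 536.5, 979.8 and 909 CPM in lung. As with Areg, every meningeal library was below every lung library, and lung 1 was the lowest and lung 2 the highest of lung.

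For injured meninges against lung all 5 of these genes were called lower, from -1.77 ± 0.34 for Dnaja1 to -7.55 ± 1.32 for Gadd45b on the log2 scale, with edgeR adjusted p from 0.00027 for Zfp36 to 0.038 for Dot1l. The calls of Dusp5 and Dot1l were each lost in 6 of 16 alternatives and those of Dnaja1 and Gadd45b in 2, while that of Zfp36 was kept in all 16. For uninjured meninges against the same lung libraries 1 of the 5, Zfp36, was called (log2 fold change -2.77 ± 0.41, edgeR adjusted p = 0.0032), and the other adjusted p ran from 0.07 to 0.18. DESeq2 called all 5 in this comparison. With injury edgeR called 0 of 5 (adjusted p from 0.48 to 0.89, 1 at an unadjusted p under 0.05, 0 by DESeq2). Of all genes, 8.94% had such an unadjusted p with injury. These genes were picked for their likeness to Areg, so their calls are not separate support for its difference. Measured the same way, r with Areg was 0.89 for Hbegf, 0.79 for Furin, 0.67 for Egfr, 0.11 for Adam17 and 0.06 for Tgfa. In their RefSeq promoter windows, 7 for the 5 genes, 0 of the 5 had the CRE found before Areg, 0 had the AP-1 letters, and 1, Gadd45b, had the TATA letters.

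**Figure D5:**
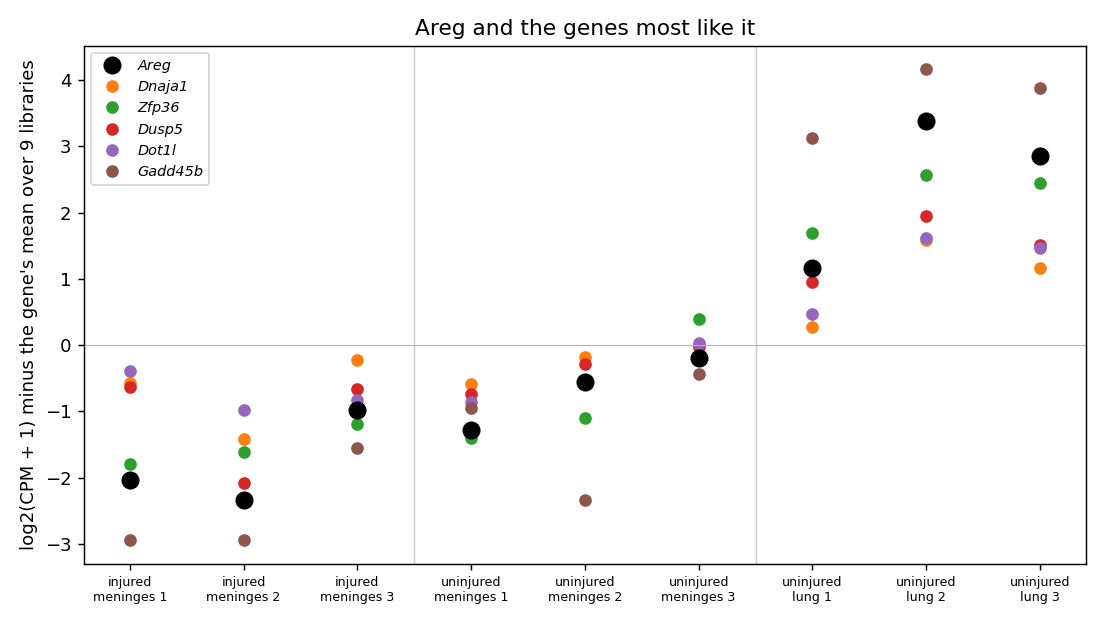
Log2(CPM + 1) of Areg and the 5 genes most like it in each library, minus each gene's mean over the 9 libraries. All 6 genes lie above their mean in the 3 lung libraries, and Areg runs from 5.09 CPM in injured meninges 2 to 319.8 CPM in lung 2.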

How the data were processed

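Per the labels, RNA came from sorted ILC2s by the PicoPure kit and was amplified (Ovation RNA-Seq System V2) before libraries were made. The authors deposited 1 table of raw counts, whole numbers of reads a gene without normalization. The submitters' processing notes name the mm9 build and the tools FastQC, STAR and HTSeq, without versions or the role of each. No source says whether reads were counted by strand, and overlapping and antisense genes can therefore share reads. The table held 23466 genes, of which 15969 were named by it and 7407 through a reference matched on the identifier, while 90 kept the identifier alone. Promoter sequences are on GRCm38.p6, another build than the one named in the processing notes, so no coordinate of the files was used.

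The test was that of edgeR 4.0.16 (R 4.3.3): filterByExpr by group, scaling by the trimmed mean of M values, 1 robust quasi-likelihood fit of all 9 libraries with a mean per group, and Benjamini-Hochberg adjustment over 15117 genes. Each SE was obtained by dividing a log2 fold change by the root of its F value. Over all genes the biological coefficient of variation was 0.91. The upper limit for a gene without reads, taken as 3 counts in a library, came to 0.163 to 0.239 CPM and covers counting error alone, as reads of amplified RNA are not separate molecules. No library repeated another, since the chi-square of counts over genes was at least 52.5 per degree of freedom in every pair.

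Alternatives were other size factors, totals without mitochondrial genes, DESeq2 1.42.0, no filter on low counts, a filter of at least 1 CPM in 3 libraries, only the 6 libraries compared, the replicate number as a block, and leaving out each library. The members and lists were chosen with earlier results of these data known. Named are the members, the called or most abundant 3 genes of the ligand, receptor and shedding lists, those of the other lists that were called or had up to the 3 smallest p, the 5 genes most like Areg (ribosomal, small, predicted and pseudogene rows left out), and the most abundant marker of other cells and that with the smallest p. Fewer than the rule allows are named. Outside the rule, markers at 0 in a group, Gata2, Lyz2, Mrc1 and the further epithelial and macrophage markers above were named after their values were seen. Il1rl1, Gata3 and Thy1 were named as genes of the gate or lineage.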

Additional observations from a re-analysis of the deposited data

How the results depend on the processing

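Areg was called lower than lung under all 16 alternatives in injured meninges (log2 fold change -5.13 to -4.08) and in uninjured meninges (-3.83 to -2.95), and was not called with injury under any of them (-1.72 to -0.85). The number of genes called depended on the setting. With injury, where 29 were called, DESeq2 called 271, edgeR without the low-count filter 78, the 6 libraries alone 12, and fits without 1 library 18 to 27. For injured meninges against lung, where 159 were called, DESeq2 called 789, edgeR without the filter 296, and fits without 1 library 54 to 230. For uninjured meninges against lung, where 96 were called, DESeq2 called 420, edgeR without the filter 193, the 6 libraries alone 226, and fits without 1 library 51 to 196. Members called stayed at 0 with injury; for injured meninges against lung they were 2 with DESeq2 and without the filter (Areg and Furin) and 1 to 2 without 1 library, and for uninjured meninges against lung 2 with DESeq2 (Areg and Egfr) and 1 to 1 without 1 library. The cause of these differences was not tested.

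No label says that a replicate number marks a shared pool or day, and libraries of the same number did not deviate together (r from -0.03 to 0.1 over 9 pairs, 4 of 9 libraries closest to their own number), so the number only names a library. With the replicate number as a block 43, 183 and 136 genes were called with injury, for injured meninges against lung and for uninjured meninges against lung, and 0, 1 and 1 members.

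Directions turned only for differences that were not called, in fits without 1 library and with the block. Without 1 library, log2 fold changes with injury ran from -0.64 to 3.10 for Hbegf, -1.15 to 1.44 for Tgfa, -0.31 to 0.22 for Adam17, -0.76 to 0.34 for Furin, -0.65 to 1.10 for Erbb3 and -0.70 to 1.95 for Map2k1. For injured meninges against lung they ran from -1.66 to 0.24 for Tgfa, -1.42 to 2.59 for Nrg4 and -0.24 to 1.49 for Erbb3, and for uninjured meninges against lung from -1.83 to 0.12 for Tgfa, -0.11 to 0.92 for Erbb3 and -0.33 to 0.28 for Adam10. With the block, Hbegf was at 0.42 and Tgfa at -1.67 with injury, and Tgfa at 0.95 for uninjured meninges against lung. Hbegf was not tested with injury in the fit of the 6 libraries alone, where it did not pass the filter. Depth limits Hbegf and Egfr in the meninges, where a library held 0 to 67 reads of either.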
